A study of Mus musculus with 6 samples.

Results

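The genes described here encode the proteasome, the barrel-shaped protease that degrades ubiquitin-tagged proteins, with its activators and assembly factors. They were taken as the protein-coding rows of the deposited table whose symbol starts with Psm, a letter from a to g and a digit, leaving out the immunoproteasome genes Psmb8 and Psmb9, which gave 48 of 54532 genes. The libraries were made from mouse bone-marrow-derived macrophages that had been given monosodium urate (MSU), the crystal of gout. Of the 6 libraries, 3 were labelled Tet2 knockout and 3 wild-type. MSU treatment is common to both groups, and only the genotype label differs. The deletion allele, the mouse strain, sex and age, the MSU dose and the exposure time are not given in the sources used here. The labels do not tie the replicates of a group to different animals or dishes: p-values therefore measure library-to-library spread, whose source (biological or technical) is not given.

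The 20S core is a stack of outer alpha rings, which gate the channel, and inner beta rings, which hold the cutting sites of Psmb5 (beta5, cuts after hydrophobic residues), Psmb6 (beta1, after acidic residues) and Psmb7 (beta2, after basic residues). The 19S particle caps the core, binds ubiquitin chains, removes them, and unfolds the substrate with a ring of ATPases. Interferons induce alternative catalytic subunits, Psmb8, Psmb9 and Psmb10, which take the places of Psmb5, Psmb6 and Psmb7 in newly built immunoproteasomes, and they induce the PA28 activator made of Psme1 and Psme2. In macrophages this set is known for shaping the peptides shown on MHC class I, and the proteasome also frees NF-kappaB by degrading its inhibitor.

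Several of the genes that differed carry a textbook recognition sequence near their start site. Shown for Psmb5, Psmb6 and Psme4 is the antioxidant response element, bound by transcription factors of the Nfe2l1 and Nfe2l2 family. These factors drive proteasome genes under stress. For Psme1 the interferon-stimulated response element is shown. The sequences are from RefSeq on GRCm38.p6 (the assembly of mm10), 5′ to 3′ on the gene's own strand. Capitals mark a match to the antioxidant response element, searched as TGACNNNGC on both strands, in Psmb5, Psmb6 and Psme4, from 150 bases before the start site to 10 bases from it on, and to the interferon-stimulated response element, searched on both strands as GAAA, any 2 bases and GAAA again, in the first 30 bases from the start site of Psme1.
Psmb5 (chr14:54617986-54618145, minus strand): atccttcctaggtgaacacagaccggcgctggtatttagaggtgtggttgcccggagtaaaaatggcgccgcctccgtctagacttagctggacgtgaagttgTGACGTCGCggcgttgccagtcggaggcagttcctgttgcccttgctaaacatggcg
Psmb6 (chr11:70525207-70525366, plus strand): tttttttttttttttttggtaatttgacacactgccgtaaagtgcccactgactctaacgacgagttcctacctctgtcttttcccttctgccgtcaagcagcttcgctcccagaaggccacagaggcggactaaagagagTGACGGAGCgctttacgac
Psme4 (chr11:30771625-30771784, plus strand): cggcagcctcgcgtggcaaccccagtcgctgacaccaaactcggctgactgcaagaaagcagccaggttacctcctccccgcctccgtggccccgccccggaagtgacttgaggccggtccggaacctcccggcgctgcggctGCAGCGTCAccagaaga
Psme1 (chr14:55578494-55578523, plus strand): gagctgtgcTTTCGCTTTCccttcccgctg
A promoter window of 300 bases (250 before the start site) was found for 40 of the 48 genes, in 43 windows. TGACNNNGC was present in 6 of those 43 windows (14.0%), those of Psmb5, Psmb6, Psmc6, Psmd9, Psmd12 and Psme4, against 12.4% of all 32851 windows. The interferon-stimulated response element was present in 5 (11.6%), those of Psmb3, Psmd4, Psmd9, Psme1 and Psmg4, against 3.4% of all windows. CCAAT was present in 14 windows (32.6%, against 37.4%) and TTCNNNGAA, the letters of the gamma-activated site, in 2 (4.7%, against 8.3%). In Psmd9 the antioxidant and interferon matches start 31 and 159 bases before the start site. Matches are letters in a window, and no binding was measured.

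Library totals lay between 11997104 reads (wild-type replicate 2) and 14481843 (knockout replicate 1). Tet2 itself, the labelled target, had 467, 482 and 450 reads in the knockout label against 413, 338 and 427 in wild-type (33.7 ± 0.80 and 29.3 ± 1.41 CPM, SD, n = 3 each; log2 difference 0.20, SE 0.07, edgeR adjusted p = 0.0159), so the labelled target was not lower and all directions below are those of the labels. Levels are in CPM, counts scaled to library size, here after TMM scaling. Wild-type replicate 2 stood apart: its counts differed from those of the other wild-type libraries by 2.30 and 2.32 times the variance of sampling noise, against 1.55 to 1.73 for the other pairs of a group. All 7 macrophage markers were present, with summed levels of 5704 to 5978 CPM in the knockout label and 5444 to 5818 in wild-type. The markers went opposite ways: 4 were called higher (edgeR adjusted p under 0.05, the threshold for a call throughout), with log2 differences of 0.78 (Adgre1), 0.65 (Mertk), 0.55 (Csf1r) and 0.20 (Fcgr1), and 2 lower, Lyz2 (-0.47) and Cd68 (-0.09). Those of Adgre1, Mertk, Csf1r and Lyz2 exceed in size that of any proteasome gene, and their part in the results below was not tested. All 6 fibroblast markers were also present, led by the collagen genes Col1a1 and Col1a2, and their summed level was 6448 to 6612 CPM in the knockout label and 6709 to 7185 in wild-type. Of these, Col1a1 (log2 difference -0.11), Col1a2 (-0.09) and Dcn (-0.25) were called lower, Col3a1 (0.11) was called higher, and Pdgfra and Thy1 were not called. Neutrophil markers summed to at most 1.36 CPM, dendritic cell markers to at most 6.54 and osteoclast markers to at most 61.4, B and T cell markers to at most 0.227 and 0.0702, and the 3 erythroid markers were at 0. In bulk RNA, fewer cells of a type and less RNA per cell cannot be told apart.

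Proteasome genes differed little between the labels. Of 47 tested genes, 5 were called higher and 10 lower in the libraries labelled knockout by the same threshold. That is 31.9% of the genes tested, against a background of 40.9% of all 13175 tested genes called (21.6% higher and 19.2% lower). The median absolute log2 difference was 0.08, against 0.17 over all tested genes, and 28 of the 47 lay within 0.1 of zero (59.6%, against 32% of all tested genes). None reached a log2 difference of 0.5, which 11.7% of all tested genes exceeded. The median over the 47 genes was -0.04, and -0.0031 over all tested genes. With upper-quartile scaling in place of TMM, 5 genes were called higher and 17 lower, where 41.6% of all tested genes were called. That scaling shifted the log2 differences of all tested genes by a median of -0.020. It called 2599 of them higher and 2883 lower, against 2852 and 2533 with TMM. The groups did not overlap in 22 genes, 7 higher and 15 lower, against a background of 47.8% of all tested genes with no overlap (24.8% higher and 23% lower). Called differences ran from 23.4% lower (Psmg2) to 18.4% higher (Psme4). The SE of the 47 log2 differences had a median of 0.04, against 0.08 over all tested genes. The set was thus measured more precisely than the typical tested gene, and the part of this in its smaller differences was not tested. All calls rest on the small spread between these libraries, a fitted biological coefficient of variation of 2.63%: with 0.1 assumed, edgeR called 0 of the 47 genes (4 at an unadjusted p under 0.05), where 14.3% of all tested genes passed (25.5% unadjusted), and DESeq2 called 12, where 28.1% passed. With 1 library left out, 13 to 18 of the genes were called, against backgrounds of 35.3%, 35.9% and 35.5% without knockout replicates 1, 2 and 3 and 36.4%, 38.6% and 36.4% without wild-type replicates 1, 2 and 3. With the replicate number as a block 15 were called (background 39.9%), and with GC and length trends removed, a setting chosen after seeing the data, 20 were (background 41.7%).

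**Figure D1:**
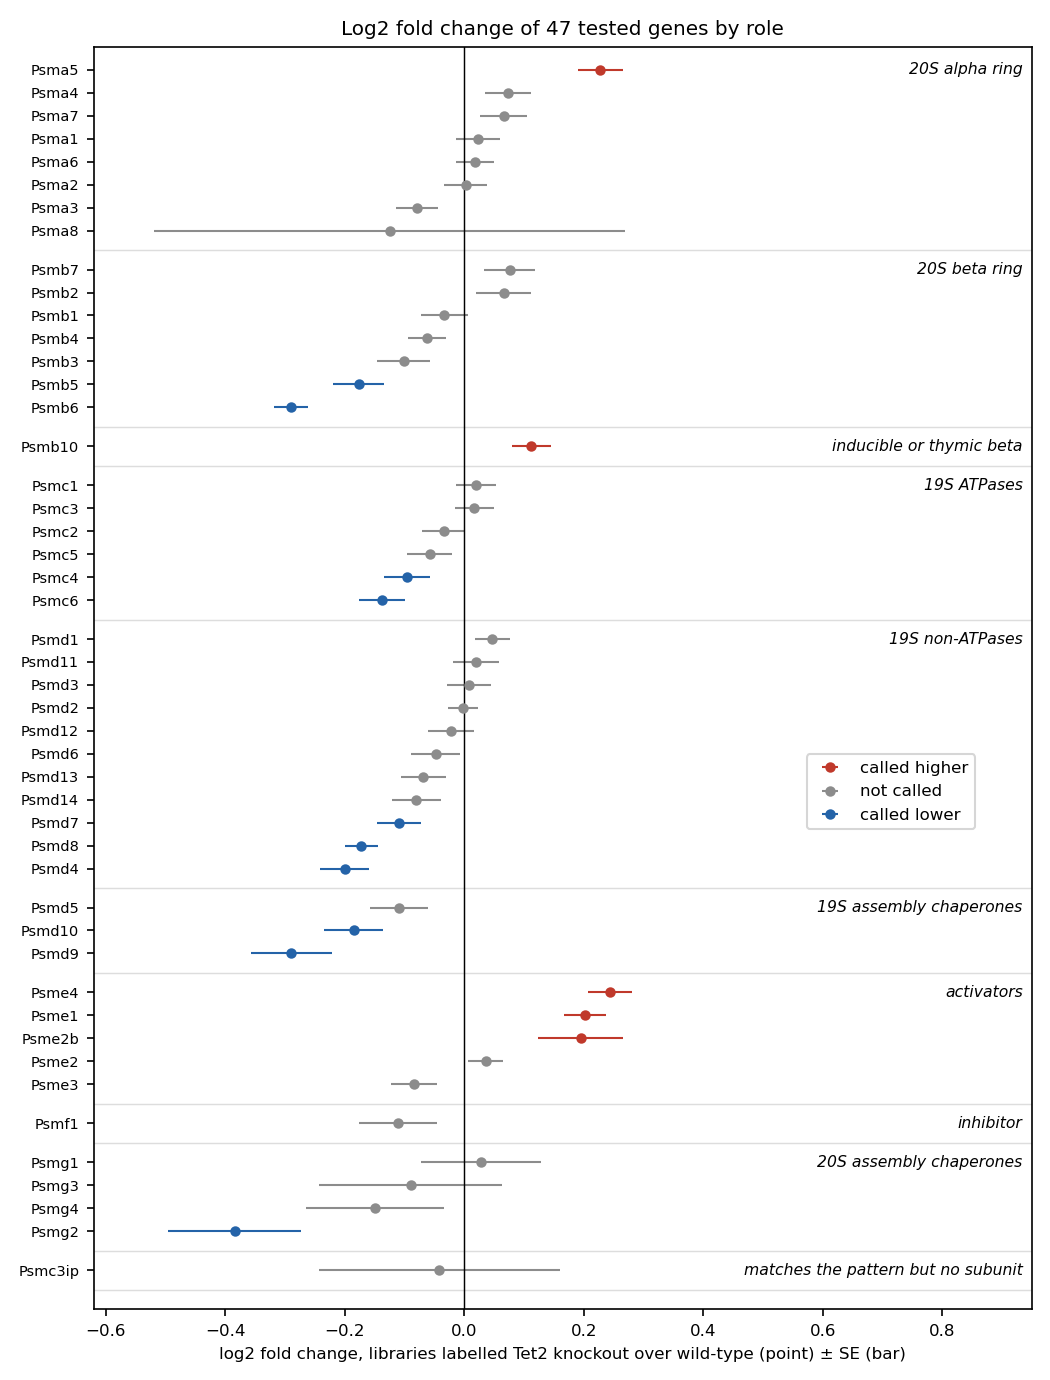
Log2 fold change of each of the 47 tested genes (x axis, libraries labelled Tet2 knockout over wild-type; bars are SE), grouped by role and coloured by the edgeR call. The 15 called genes lie between -0.38 (Psmg2) and 0.24 (Psme4), with no 19S gene called higher.

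In the alpha ring of the core, 1 of 8 tested genes was called higher and none lower, against 40.9% of all tested genes called (21.6% higher and 19.2% lower). Psma5, which encodes alpha5, was at 147, 146 and 144 CPM in the knockout label and 123, 131 and 119.6 CPM in wild-type. Every knockout-label value lay above every wild-type value, and the gene was 17.1% higher (log2 difference 0.23, SE 0.04; edgeR adjusted p = 2.19e-07). It lies on mm10 chromosome 3 at positions 108256926 to 108279974. The other ubiquitously expressed alpha genes, Psma1, Psma2, Psma3, Psma4, Psma6 and Psma7, were not called, with log2 differences from -0.08 to 0.07. Psma3 was the lowest of them, at 166, 162 and 168 CPM against 174, 179 and 171 CPM (log2 difference -0.08; edgeR adjusted p = 0.0565). It missed the threshold although its groups did not overlap. Psma8, the testis form of alpha4, had 10, 13 and 13 reads in the knockout label and 18, 9 and 11 in wild-type, and its log2 difference of -0.12 had an SE of 0.39, so only a large difference could have been seen at this depth. Psma2 shares part of its span with AW209491 on the same strand (1016 reads over all libraries, against 12238 for Psma2).

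In the beta ring 2 of 7 genes were called (background 40.9% in either direction and 19.2% lower), both catalytic and both lower. Psmb6 (beta1) was at 301, 295 and 304 CPM in the knockout label and 354, 386 and 361 CPM in wild-type. The groups were well apart, with 18.2% less in the knockout label (log2 difference -0.29, SE 0.03; edgeR adjusted p = 1.53e-15). Psmb5 (beta5), the subunit that proteasome-inhibiting drugs mainly target, was at 106, 108 and 112 CPM against 114, 136 and 120.4 CPM. Its groups came within 2 CPM of each other, and it was 11.5% lower (log2 difference -0.18, SE 0.04; edgeR adjusted p = 0.000520). Without wild-type replicate 2, its highest library, the log2 difference of Psmb5 was -0.11 (edgeR adjusted p = 0.0196). The third catalytic gene, Psmb7 (beta2), was at 96.5, 99.8 and 98.8 CPM against 95.8, 87.7 and 95.9 CPM. Its groups did not overlap but lay within 1 CPM of each other. Its log2 difference was 0.08 (SE 0.04) in the other direction and was not called (edgeR adjusted p = 0.151). Psmb7 shares part of its span with Nek6 on the opposite strand (6738 reads, against 7829 for Psmb7). Nek6 was itself called higher in the knockout label (log2 difference 0.16, edgeR adjusted p = 0.00313). It was at 86.9 ± 3.75 CPM there and 78.0 ± 1.62 in wild-type (SD, n = 3 each). The labels do not say whether counting used strand, so reads of overlapping genes cannot be told apart. Of the 48 genes, 22 overlap another gene and 8 overlap one with at least 300 reads in total. The structural beta genes Psmb1, Psmb2, Psmb3 and Psmb4 had log2 differences from -0.10 to 0.07 and none was called. Psmb3, the lowest of these, was at 89.4, 87.3 and 81.8 CPM against 89.5, 97.6 and 90.8 CPM (edgeR adjusted p = 0.0578). Summed per kilobase of gene length, the 7 beta genes gave 551 ± 2.65 CPM per kb in the knockout label and 607 ± 23.2 in wild-type (SD, n = 3 each), a difference of -9.17%. The 7 alpha genes without Psma8 gave 515 ± 6.34 and 494 ± 9.23 CPM per kb, 4.23% more. These sums weigh genes of high level most, and Psmb6 alone supplied 160.3 of the 551 CPM per kb. From wild-type to the knockout label Psmb6 went from 196 to 160.3 CPM per kb and Psmb5 from 137 to 121. The lower beta sum thus rests mostly on these 2 called genes and is not a fall of the whole ring. Psma5, the only alpha gene called, was at 110 CPM per kb in the knockout label and 94.1 in wild-type, which weighs on the alpha sum. The promoters printed above for Psmb5 and Psmb6 both hold TGACNNNGC, 47 and 9 bases before the start site. So do those of Psmc6 and Psmd9, both called lower, Psme4, called higher, and Psmd12, not called. The share of the set with this motif (14.0%) is near that of all windows (12.4%). The summed fibroblast markers were lower in the same libraries, with 3 of 6 markers called lower and 1 higher (above), and their part in these differences was not tested.

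The inducible catalytic gene Psmb10 (beta2i) rose slightly. It was at 238, 228 and 236 CPM in the knockout label and 214, 229.6 and 206 CPM in wild-type. Wild-type replicate 2 lay within the knockout-label range, and the gene was 8.08% higher (log2 difference 0.11, SE 0.03; edgeR adjusted p = 0.00303). The call was lost without wild-type replicate 3 (log2 difference 0.07, edgeR adjusted p = 0.0967). Psmb11, the thymic form of beta5, had 2, 0 and 3 reads in the knockout label and 0 in each wild-type library and was not tested. Outside the set, Psmb8 (beta5i) was at 209 ± 3.20 and 186 ± 3.89 CPM (log2 difference 0.17; edgeR adjusted p = 5.25e-06) and Psmb9 (beta1i) at 68.4 ± 2.12 and 56.5 ± 1.10 CPM (SD, n = 3 each; log2 difference 0.28; edgeR adjusted p = 2.74e-06).

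A ratio of an inducible gene to the gene it replaces does not depend on how libraries are scaled. Per kilobase, Psmb10 had 4.95, 4.58 and 4.80 reads for each read of Psmb7 in the knockout label and 4.49, 5.25 and 4.32 in wild-type. The groups overlapped, and the log2 ratio differed by 0.03 (exact permutation test, two-sided, p = 0.7). The Psmb7 counts may include reads of Nek6 (above), whose part in this ratio was not tested. The ratio of Psmb8 to Psmb5 was 0.636, 0.642 and 0.616 in the knockout label and 0.525, 0.459 and 0.506 in wild-type. That of Psmb9 to Psmb6 was 0.115, 0.123 and 0.112 against 0.0801, 0.0765 and 0.0799. In both pairs every knockout-label library was above every wild-type one, by 27.3% and 47.9%. Of the 4 ratios computed, 3 reached p = 0.1 by the exact permutation test, the smallest that 3 against 3 allows (0.133 after Benjamini-Hochberg adjustment), so none could pass 0.05. For beta5 and beta1 the ratio rose from both sides, the inducible gene being called higher and the constitutive one lower. Per kilobase the inducible gene stayed below the constitutive one in every library, so on that scale these pairs moved closer together. In plain counts Psmb8 had 2925, 2970 and 2783 reads against 1511, 1520 and 1484 for Psmb5 in the knockout label. In wild-type it had 2556, 2295 and 2580 against 1599, 1644 and 1674. By counts Psmb8 was thus above Psmb5 in every library and moved further from it, while Psmb9 stayed below Psmb6. The reading for Psmb8 depends on the gene lengths used.

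**Figure D2:**
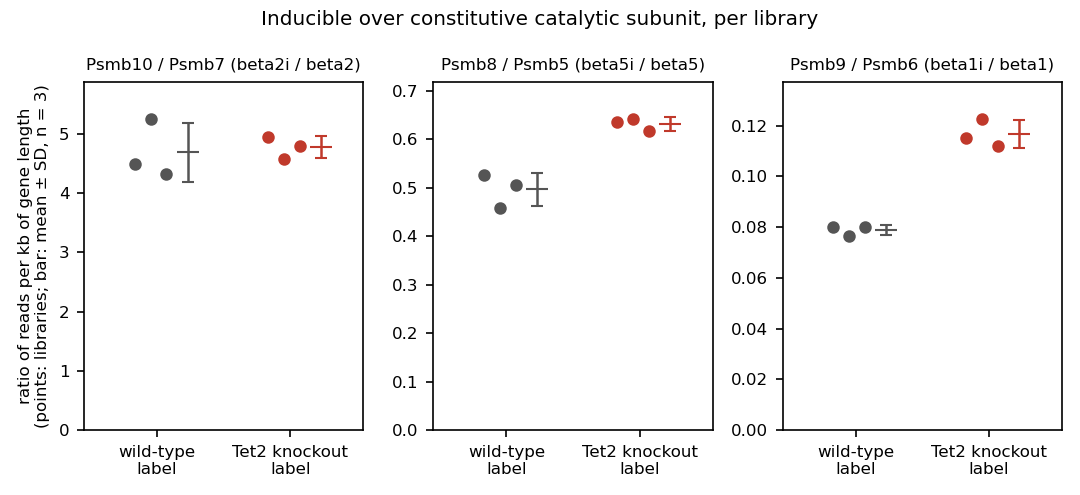
Ratio of inducible to constitutive catalytic gene, in reads per kilobase of gene length (y axis from 0), for each library (points) with mean ± SD (bars, n = 3). The groups overlap for Psmb10 over Psmb7 (4.32 to 5.25) and not for Psmb8 over Psmb5 (0.459 to 0.525 in wild-type, 0.616 to 0.642 in the knockout label) or Psmb9 over Psmb6.

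In the 19S regulatory particle 5 of 17 genes were called lower and none higher, with a median log2 difference of -0.05. That is 29.4% called, against 40.9% of all tested genes in either direction and 19.2% lower. Among the ATPases, which pull the substrate into the core, 2 of 6 were called (background 40.9%). Psmc6 was at 118, 118 and 114 CPM in the knockout label and 131, 130.4 and 123 CPM in wild-type, 9.10% lower (edgeR adjusted p = 0.00225). Psmc4 was at 118, 121 and 119.7 CPM against 124, 133 and 126 CPM, 6.45% lower (edgeR adjusted p = 0.0367). Neither gene's groups overlapped, but the call of Psmc4 was lost with DESeq2 (adjusted p = 0.104), and without knockout replicate 1 (edgeR adjusted p = 0.124), 2 (0.0630) or 3 (0.0788) or wild-type replicate 2 (0.136). Psmc5, at 134, 130.1 and 134 CPM against 139.9, 142 and 134 CPM, had a log2 difference of -0.06 that was not called (edgeR adjusted p = 0.219). Psmc1, Psmc2 and Psmc3 lay between -0.03 and 0.02.

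Of the 11 non-ATPase subunits, 3 were called lower and none higher (27.3%, against 40.9% of all tested genes in either direction and 19.2% lower). Psmd4, a receptor that binds ubiquitin chains, was at 104, 118 and 106 CPM in the knockout label and 121, 129.8 and 126 CPM in wild-type, 12.9% lower (log2 difference -0.20, SE 0.04; edgeR adjusted p = 2.50e-05). Psmd8, a subunit of the lid, was at 398, 382 and 404 CPM against 438, 462 and 435 CPM, 11.3% lower (log2 difference -0.17, SE 0.03; edgeR adjusted p = 8.17e-08). For both genes the knockout-label libraries all lay below the wild-type ones. Psmd7, the lid partner of the deubiquitinase Psmd14, was at 137, 143 and 149 CPM against 149, 161 and 153 CPM (log2 difference -0.11; edgeR adjusted p = 0.0112). Its highest knockout-label library nearly met the lowest wild-type one, and it was not called with DESeq2 (adjusted p = 0.0529) or when knockout replicate 1 was left out (edgeR adjusted p = 0.154). Without knockout replicate 1, 3 of the 17 genes of the particle were called, where 35.3% of all tested genes were. The other 8 subunits had log2 differences from -0.08 (Psmd14) to 0.05 (Psmd1). Among them the large scaffold gene Psmd2, the most abundant of the set by CPM, was at 503 ± 4.57 and 504 ± 5.93 CPM (SD, n = 3 each) and was not called (edgeR adjusted p = 0.962). Psmd1 shares part of its span with Htr2b on the opposite strand (2183 reads, against 21149 for Psmd1). Htr2b was called higher in the knockout label (log2 difference 0.80, edgeR adjusted p = 1.23e-16).

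Called genes with their library values are set against the wild-type mean in the plot of the 15 calls. A difference as small as 6.45% (Psmc4) left the groups without overlap. Wild-type replicate 2, the library that stood apart (above), was the highest wild-type library for 11 of the 15 called genes. The share of all called genes for which this holds is not given here.

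**Figure D3:**
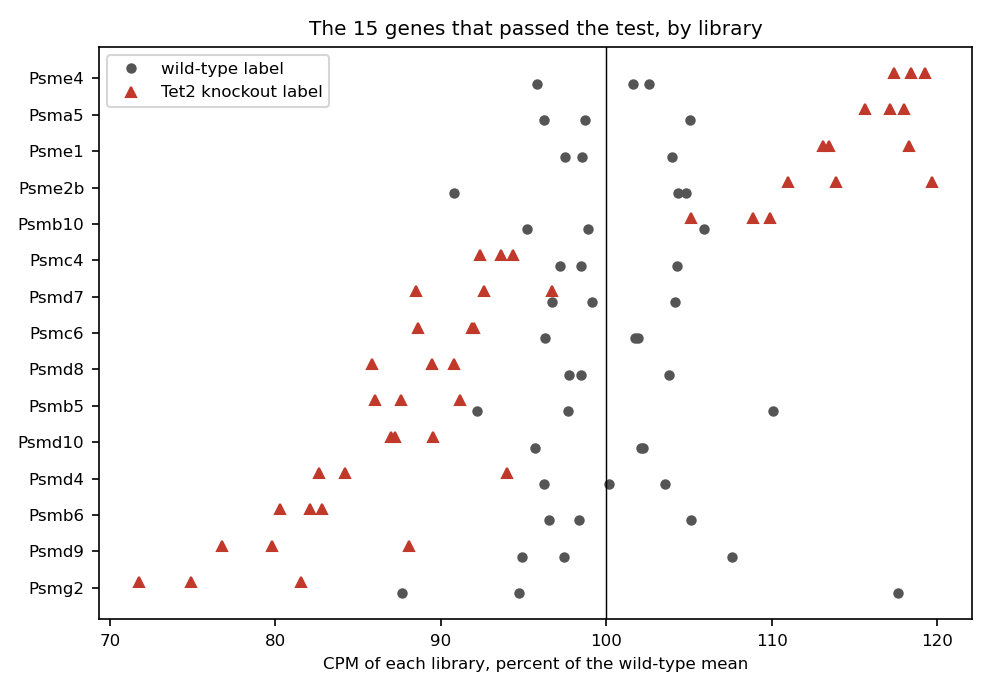
CPM of each library as a percentage of the wild-type mean (x axis; circles wild-type label, triangles Tet2 knockout label) for the 15 called genes. Psmb10 is the 1 gene whose groups overlap; Psmg2 has the widest wild-type range, 87.7% to 118%.

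The activators, which dock on the ends of the core without using ATP, had 3 of 5 genes called higher and none lower, where 21.6% of all tested genes were called higher and 40.9% in either direction. The calls did not follow the complexes: Psme1 was called and its partner Psme2 was not. Psme1 (PA28 alpha) was at 181, 174 and 173 CPM in the knockout label and 151, 159 and 149 CPM in wild-type, 15.1% higher with no overlap (log2 difference 0.20, SE 0.04; edgeR adjusted p = 7.04e-07). Its partner Psme2 (PA28 beta), which lies beside it on mm10 chromosome 14 (55587441 to 55591113, against 55578123 to 55581529 for Psme1), was at 332, 349 and 332 CPM against 316, 345 and 328 CPM. Those groups overlapped and the log2 difference of 0.04 (SE 0.03) was not called (edgeR adjusted p = 0.341), although it passed without wild-type replicate 2 (0.0441). Per kilobase, Psme1 stood at 0.435, 0.397 and 0.416 of Psme2 in the knockout label and 0.381, 0.368 and 0.363 in wild-type, a 12.2% difference without overlap (exact permutation test, two-sided, p = 0.1, adjusted 0.133). This pair was chosen after its values were seen. Psme1 carries the interferon-stimulated response element shown above, starting 9 bases after the RefSeq start site. Of the other genes of the set with this element, Psmd4 and Psmd9 were called lower and Psmb3 and Psmg4 were not called. The summed dendritic cell markers were at 5.26 to 6.54 CPM in the knockout label and 3.20 to 4.75 CPM in wild-type. Of the 4 markers Xcr1 alone was called (3.60 and 1.71 CPM), Zbtb46 was not (2.26 and 2.12 CPM; edgeR adjusted p = 0.805), and Flt3 and Ccr7 had too few reads to test. Their part in the rise of Psme1 was not tested. Psme1 shares part of its span with Emc9 on the opposite strand (663 reads, against 13427 for Psme1).

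Psme4 (PA200), a large single-chain activator of nuclear proteasomes, had the largest positive log2 difference of the set in the edgeR fit. It was at 148, 149.5 and 147 CPM in the knockout label and 129, 127 and 120.1 CPM in wild-type, 18.4% higher with no overlap (log2 difference 0.24, SE 0.04; edgeR adjusted p = 2.32e-08). Psme3 (PA28 gamma), the nuclear relative of PA28 alpha and beta, was at 120.1, 121 and 119.5 CPM against 125, 133 and 126 CPM. Its groups did not overlap, but the log2 difference of -0.08 was not called (edgeR adjusted p = 0.0707). Psme2b, a copy of Psme2, was at 31.4, 32.2 and 33.8 CPM against 29.6, 25.7 and 29.5 CPM (log2 difference 0.19, SE 0.07; edgeR adjusted p = 0.0218). Its value is uncertain. It can share reads with Psme2, and it overlaps 9930111J21Rik1 on the same strand, a gene at 21.9 ± 0.89 CPM in the knockout label and 13.4 ± 1.37 in wild-type (SD, n = 3 each; log2 difference 0.70). With DESeq2 it was not called (adjusted p = 0.140). Nor was it when wild-type replicate 2 was left out (log2 difference 0.13, edgeR adjusted p = 0.182) or knockout replicate 3 (0.105).

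Of the factors that build or restrain the particle, 3 of 8 were called and all 3 were lower. Of all tested genes 40.9% were called in either direction and 19.2% lower. The chaperones of the 19S base carry Psmd names. Psmd9 was at 34.0, 30.8 and 29.7 CPM in the knockout label and 37.7, 41.6 and 36.7 CPM in wild-type, 18.2% lower (log2 difference -0.29, SE 0.07; edgeR adjusted p = 0.000213). Psmd10, also known as gankyrin, was at 61.2, 62.8 and 61.0 CPM against 71.7, 71.6 and 67.1 CPM (log2 difference -0.18, SE 0.05; edgeR adjusted p = 0.00131). The groups of both genes were apart. Psmd5, at 67.6, 64.4 and 66.7 CPM against 71.5, 72.0 and 70.7 CPM, was also without overlap but was not called (log2 difference -0.11; edgeR adjusted p = 0.0611).

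The chaperones of the 20S core were at low levels, where counting limits precision. Psmg2 was at 11.4, 10.5 and 10.1 CPM in the knockout label and 13.3, 16.5 and 12.3 CPM in wild-type (log2 difference -0.38, SE 0.11; edgeR adjusted p = 0.00299). Wild-type replicate 2 was the highest value, and without it the log2 difference was -0.27 and the call was lost (edgeR adjusted p = 0.0727). Psmg4 was at 10.9, 10.3 and 9.84 CPM against 12.6, 9.82 and 11.9 CPM, and Psmg3 at 7.16, 5.47 and 5.83 CPM against 5.61, 6.19 and 7.84 CPM. Both overlapped and were not called, and neither was Psmg1 (log2 difference 0.03, SE 0.10). Psmf1, an inhibitor of the core in the test tube, was at 37.8, 34.5 and 37.4 CPM against 36.2, 42.4 and 40.1 CPM and was not called (edgeR adjusted p = 0.171). Psmc3ip matches the naming pattern but encodes a recombination factor of meiosis and no subunit. It was at 3.23, 4.19 and 3.10 CPM against 3.48, 3.55 and 3.81 CPM, with no call.

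Subunits are needed in equal numbers in the particle, yet their mRNA levels per kilobase were unequal. Over the 31 constitutive core and 19S genes without Psma8, levels in the knockout label ran from 20.7 CPM per kb (Psmd11) to 180.4 (Psma6), an 8.73-fold range with a median of 46.5. In wild-type they ran from 20.4 (Psmd11) to 196 (Psmb6), a 9.62-fold range with a median of 45.9. Psmb6, the gene with the largest fall among core and 19S subunits, was thus also the highest of them per kilobase in wild-type, and Psma6 (178 CPM per kb in wild-type, 180.4 in the knockout label) became the highest in the knockout label. Psmb10 stood at 137 and 127 CPM per kb in the knockout label and wild-type, against 28.7 and 27.2 for Psmb7. Psme2 was the highest gene of the whole set in the knockout label, at 191 CPM per kb. The inhibitor Psmf1 and the chaperones other than Psmd10 stayed at or below 20.6 CPM per kb in both groups. The length used is that of the deposited table for each gene, and a gene with rarely used exons is understated on this scale.

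**Figure D4:**
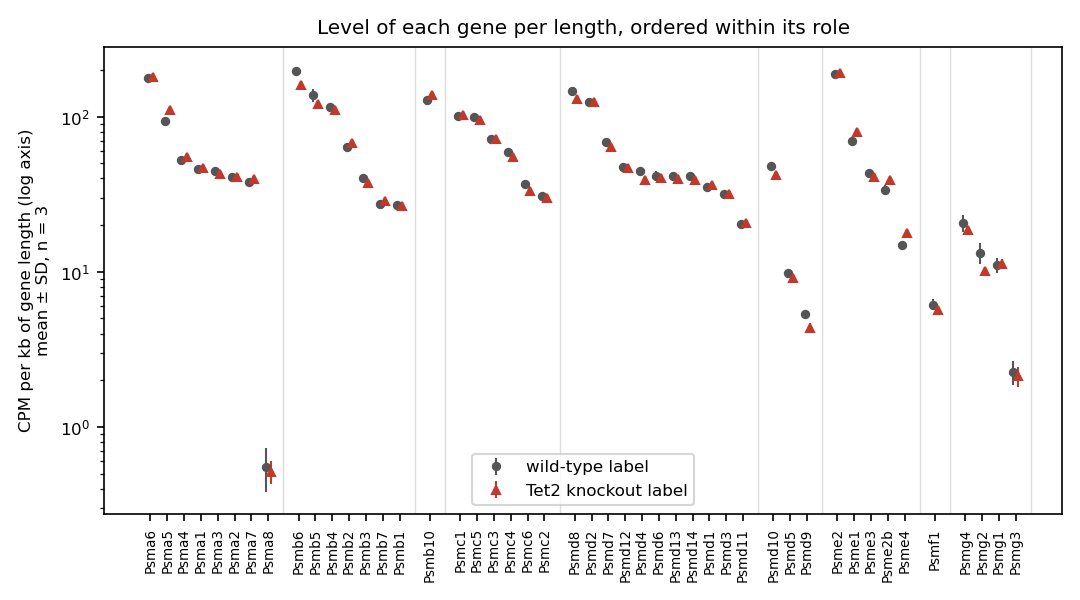
Level of each tested gene other than Psmc3ip in CPM per kilobase of gene length (log y axis; mean ± SD, n = 3) in both groups, ordered by wild-type level within each role. Differences between genes, up to 9.62-fold among constitutive core and 19S genes in wild-type, are far wider than those between the groups.

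Other genes of the pathway, listed by role and not by how they moved, gave 4 of 30 tested called higher and 8 lower (40%, against the background of 40.9%). Nfe2l1, the transcription factor that restores proteasome genes when proteasomes are impaired, was at 529 ± 11.2 CPM in the knockout label and 533 ± 18.5 in wild-type (SD, n = 3 each; log2 difference -0.01, SE 0.03) and was not called, nor were Ddi2 and Ngly1, which process it. Its relative Nfe2l2, the regulator of antioxidant genes, was at 230.0, 221 and 232 CPM against 282, 274 and 276 CPM, 18.0% lower with no overlap (log2 difference -0.29, SE 0.03; edgeR adjusted p = 2.55e-14). Akirin2, which brings proteasomes into the nucleus, was also lower (log2 difference -0.41, SE 0.10; edgeR adjusted p = 0.00484). Pomp, which helps the core mature, was higher (log2 difference 0.11), while Adrm1, a further ubiquitin receptor of the 19S particle (-0.13), and the ligase gene Ube3c (-0.18) were lower. Sem1, Uchl5, Usp14, Ecpas, Txnl1 and Ublcp1 were not called. Upstream, Uba1, the main ubiquitin-activating enzyme, was higher (log2 difference 0.22, SE 0.03), as was Vcp, the segregase that extracts substrates (0.13), whereas the shuttle Ubqln4 (-0.23), Zfand2a (-0.21) and the Vcp cofactor Ufd1 (-0.13) were lower.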

How the data were processed

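Bulk RNA was sequenced from 6 libraries. The deposited table holds raw whole-number read counts per gene, which the authors made with featureCounts after fastp trimming and STAR alignment to mm10, per the submitters' processing notes; versions, strand setting and the treatment of reads that map to several genes are not given in the sources used here. All further values were computed from these counts.

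Groups follow the genotype in the labels. Genes were filtered with filterByExpr (minimum count 10), scaled by TMM and tested with edgeR 4.0.16's quasi-likelihood test (R 4.3.3) over all 13175 genes kept, with Benjamini-Hochberg adjustment and a threshold of 0.05. Of the 48 proteasome genes 47 passed the filter. Ratios were compared with exact permutation tests in Python 3.11.15. Totals of 11997104 to 14481843 counts per library gave the 47 genes 9 to 7134 reads in a library. The members and gene lists were chosen with earlier results of these data known. Library values are given for the catalytic and activator genes, the 3 largest absolute log2 differences of each role list, and all members of shorter lists. The code was tested on simulated data.

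Alternatives were RLE or upper-quartile scaling, DESeq2 1.42.0, limma 3.58.1 (voom), 2 other count filters, protein-coding genes alone, the replicate block, an assumed coefficient of variation of 0.1, removal of gene length trends, and each library left out. Removal of GC and length trends was chosen after seeing the data. Promoters were read from RefSeq's GRCm38.p6 table, not from a genome sequence. Some genes counted in the pathway list are not reported here by name.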

Additional observations from a re-analysis of the deposited data

How the results depend on the processing

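The 15 calls rest on the small spread between these libraries. With an assumed coefficient of variation of 0.1, edgeR called 1885 genes in all and 0 proteasome genes (4 at an unadjusted p under 0.05), hence 0 of the core, 0 of the 19S particle and 0 activators. Of the 15, 10 (Psma5, Psmb5, Psmb6, Psmc6, Psmd4, Psmd8, Psmd9, Psmd10, Psme1 and Psme4) were called under all 16 other alternatives. The share of all called genes that kept their call in this way is not given here. The count therefore does not set the proteasome genes apart from others. Upper-quartile scaling called 7 core genes in place of 4, and DESeq2 called 3 of the 19S genes in place of 5; the cause was not tested. Leaving out 1 library called 4725 to 5177 genes in all, 13 to 18 proteasome genes, 4 to 5 of the core, 3 to 6 of the 19S particle (3 without knockout replicate 1) and 2 to 4 activators. Across those fits the log2 difference ran from -0.26 to 0.17 for Psma8, -0.21 to 0.063 for Psmg3 and -0.19 to 0.037 for Psmc3ip, and that of the Psmb10 to Psmb7 ratio from -0.025 to 0.12, so none of these has a stable direction. Removing GC and length trends, chosen after seeing the data, called 20 proteasome genes. The replicate block called 15 proteasome genes, the same 15, and 5259 genes in all. The deviations of same-numbered libraries correlated at 0.0121, -0.000854 and 0.00649, and 1 or more libraries correlated best with another number. No deviation shared by number was seen. Whether the numbers pair the libraries cannot be told from this, and the labels do not say. Depth limits Psma8, Psmc3ip, Psmb11 and the Psmg genes.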
